A study of Homo sapiens with 24 samples.

Results

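NIN, MIA3, KTN1, BAZ2B and ITSN2 are 5 mRNAs among the 28307 genes of a count table of RNA recovered with GFP-tagged RUVBL1 or RPAP3. They were chosen by their enrichment in untreated cells, where each was recovered more with RPAP3 than with RUVBL1, and are found in the table by gene symbol. The untreated values that led to this choice are therefore given as a description, with no test. All 5 mRNAs passed the filter on low counts in every fit, with 220 to 17801 reads per library.

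The cells were HCT116, a human colorectal carcinoma line, in which CRISPR/Cas9 had placed GFP on either RUVBL1 or RPAP3. Lysates were passed over beads that bind GFP, called GFP beads, or over agarose beads with nothing coupled, called uncoupled beads, and the RNA left on the beads was sequenced. The RPAP3 line was untreated or had received 100 µg/mL puromycin for 30 min. The RUVBL1 line was untreated, had received the same puromycin dose, had received 0.5 µM CB-6644 for 16 h, or had received both drugs. With 2 libraries in each of 12 groups there were 24 libraries, and all groups shared the HCT116 background and a GFP knock-in. Whether each line was 1 clone was not given in the sources used here, and CB-6644 was applied to the RUVBL1 line alone.

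RUVBL1 and RUVBL2 are AAA+ ATPases that form a ring, and RPAP3 is the scaffold that joins this ring to HSP90 and PIH1D1 in the R2TP co-chaperone complex. R2TP helps to build large assemblies such as RNA polymerases, small nucleolar RNPs and the kinases related to PI3K, and it can meet a client while the client is still being made. An mRNA can then come down with the chaperone through the nascent chain on its ribosomes. Puromycin ends translation early and frees nascent chains from ribosomes, and CB-6644 inhibits the ATPase activity of the RUVBL1/2 ring. A comparison after puromycin thus asks which mRNAs were still recovered once nascent chains had been released. A comparison after CB-6644 alone asks which mRNAs were recovered while the ATPase was inhibited, without release of nascent chains by puromycin. A comparison after both drugs asks which were recovered with the ATPase inhibited and nascent chains released.

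The 5 mRNAs encode large proteins and were grouped as coiled-coil mRNAs, after the rods in which α-helices wind around each other. The coiled-coil content of each protein was not measured here, and the roles of the 5 proteins differ. KTN1 (kinectin, gene ID 3895, chr14:55580207-55684584, plus strand) is an integral protein of the endoplasmic reticulum (ER) that binds kinesin. MIA3 (TANGO1, gene ID 375056, chr1:222618097-222668007, plus strand) spans the membrane at ER exit sites and loads bulky cargo such as procollagen. NIN (ninein, gene ID 51199, chr14:50719763-50831503, minus strand) anchors microtubules at the centrosome. BAZ2B (gene ID 29994, chr2:159315312-159712442, minus strand) is a bromodomain protein that partners ISWI chromatin remodellers. ITSN2 (intersectin 2, gene ID 50618, chr2:24202864-24361368, minus strand) is a scaffold of clathrin-mediated endocytosis. Positions are those of the GRCh38.p14 gene table. In the count table, the gene overlapping a member was LOC105370489, inside NIN on the opposite strand, with at most 11 reads in a library against at least 1024 for NIN.

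Total counts ran from 9019665 to 33051512 per RUVBL1 library and from 30844089 to 50394245 per RPAP3 library. Log2 counts of the 2 replicates of a group correlated across genes at 0.955 to 0.994, and the counts of each pair lay further apart than sampling noise allows (chi-square per degree of freedom 13.0 to 93.9). Of the RUVBL1 libraries, 3 stood apart: GFP beads after CB-6644 replicate 2, GFP beads after both drugs replicate 1 and untreated uncoupled beads replicate 2. The first pair lay 110.5 and 71.98 from the centre of the first principal component, where no other RUVBL1 library lay beyond 47.8, and the third lay 89.4 from the centre of the second. On untreated GFP beads relative to uncoupled beads, RPAP3 mRNA was higher in the RPAP3 line by 3.27 ± 0.14 on the log2 scale (edgeR adjusted p = 4.23e-13), and that difference was lower by 3.36 ± 0.19 after puromycin (adjusted p = 1.28e-10). RUVBL1 mRNA stood at 1.08 ± 0.34 in the RUVBL1 line, which did not pass in edgeR (adjusted p = 0.179), and at −0.14 ± 0.16 in the RPAP3 line. RPAP3 mRNA in the RUVBL1 line stood at 0.97 ± 0.43 untreated (edgeR adjusted p = 0.426). After CB-6644 it stood at 2.52 ± 0.45 there (edgeR adjusted p = 0.0139). Results in the RUVBL1 line were also computed without the 3 libraries. The epithelial markers EPCAM, CDH1, KRT8, KRT18 and KRT19 were found in all 24 libraries, while VIL1, the sixth on that list, had a median of 0 CPM. Of the 11 markers of other cell types, CD68 and COL1A1 made up most of a summed level of 20.0 to 46.0 CPM, and PTPRC, CD3E, HBB, COL1A2 and DCN had a median of 0.

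Levels are given as CPM, counts scaled to library depth and between libraries with TMM factors, with replicate A or 1 before replicate B or 2. KTN1, on GFP beads of the RPAP3 line, stood at 220 and 264 CPM untreated and at 470 and 608 CPM after puromycin. On uncoupled beads of that line it stood at 119 and 123 CPM untreated and at 258 and 242 CPM after puromycin. The GFP libraries thus lay above the uncoupled libraries under both conditions, and both kinds of beads carried more KTN1 after puromycin. In the RUVBL1 line the GFP beads held 155 and 161 CPM untreated, 255 and 194 after puromycin, 365 and 207 after CB-6644, and 492 and 593 after both drugs. The uncoupled beads of the same treatments held 240 and 189, 293 and 272, 206 and 208, and 260 and 236 CPM. The GFP libraries lay under the uncoupled ones untreated and after puromycin and above them after both drugs. After CB-6644 one GFP library lay above them and the other between them. The highest of the 12 group means, 542 CPM on RUVBL1 GFP beads after both drugs and 539 on RPAP3 GFP beads after puromycin, differed by less than the spread of their libraries, and the lowest was 121 on untreated RPAP3 uncoupled beads.

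MIA3 had a similar profile. On RPAP3 GFP beads it stood at 57.8 and 54.1 CPM untreated and at 92.3 and 139 CPM after puromycin, against 30.5 and 33.5 CPM, then 58.3 and 53.3 CPM, on uncoupled beads. No GFP library of the RPAP3 line overlapped the uncoupled libraries of its treatment. On RUVBL1 GFP beads the 4 treatments gave 34.4 and 40.9 CPM untreated, 81.3 and 59.8 after puromycin, 88.3 and 55.4 after CB-6644, and 163 and 195 after both drugs. The matching uncoupled beads gave 78.8 and 43.9, 71.8 and 63.4, 52.6 and 49.1, and 67.4 and 72.7 CPM. In that line MIA3 lay under the uncoupled beads untreated, overlapped them after puromycin, and lay above them in both treatments with CB-6644. The group with both drugs had the highest mean of the 12, 179 ± 22.6 CPM (SD, n = 2), and its libraries overlapped no other group.

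NIN differed from these ER mRNAs in where it was highest. On RPAP3 GFP beads it stood at 123 and 146 CPM untreated and at 90.2 and 97.6 CPM after puromycin, against 62.4 and 57.2 CPM, then 60.0 and 67.4 CPM, on uncoupled beads. The GFP level was thus lower after puromycin, although still above the uncoupled beads, whose ranges overlapped between the treatments. On RUVBL1 GFP beads NIN stood at 75.0 and 75.3 CPM untreated, 96.2 and 78.8 after puromycin, 210 and 136 after CB-6644, and 144 and 147 after both drugs. The uncoupled beads held 120 and 96.1, 97.4 and 87.0, 85.5 and 84.4, and 99.8 and 89.1 CPM. Its highest mean, 173 ± 52.3 CPM (SD, n = 2) after CB-6644, rested on libraries so far apart that they enclosed the values after both drugs.

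BAZ2B on RPAP3 GFP beads stood at 53.4 and 52.6 CPM untreated and at 34.7 and 48.1 CPM after puromycin, against 29.2 and 26.2 CPM, then 24.6 and 23.8 CPM, on uncoupled beads. On RUVBL1 GFP beads it stood at 20.9 and 14.5 CPM untreated, 27.6 and 19.1 after puromycin, 48.0 and 35.9 after CB-6644, and 53.3 and 47.6 after both drugs. The uncoupled beads held 28.4 and 20.7, 24.5 and 22.0, 35.4 and 26.0, and 29.5 and 26.2 CPM. BAZ2B was the only member whose untreated RUVBL1 libraries overlapped between the beads, and after CB-6644 alone the lower GFP library was just above the higher uncoupled one.

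ITSN2 changed least after puromycin on RPAP3 GFP beads, with 36.4 and 49.4 CPM untreated and 43.3 and 47.8 CPM after the drug. The RPAP3 uncoupled beads held 22.1 and 24.4 CPM untreated and 38.5 and 33.6 CPM after puromycin, so the narrower gap after the drug came with a higher uncoupled level. On RUVBL1 GFP beads ITSN2 stood at 20.2 and 25.7 CPM untreated, 50.2 and 36.1 after puromycin, 47.2 and 42.0 after CB-6644, and 64.2 and 54.4 after both drugs. The matching uncoupled beads held 32.2 and 29.9, 35.7 and 37.4, 30.6 and 25.0, and 38.5 and 40.5 CPM. Its GFP libraries fell under the uncoupled ones untreated, overlapped them after puromycin, and lay above them with CB-6644.

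**Figure D1:**
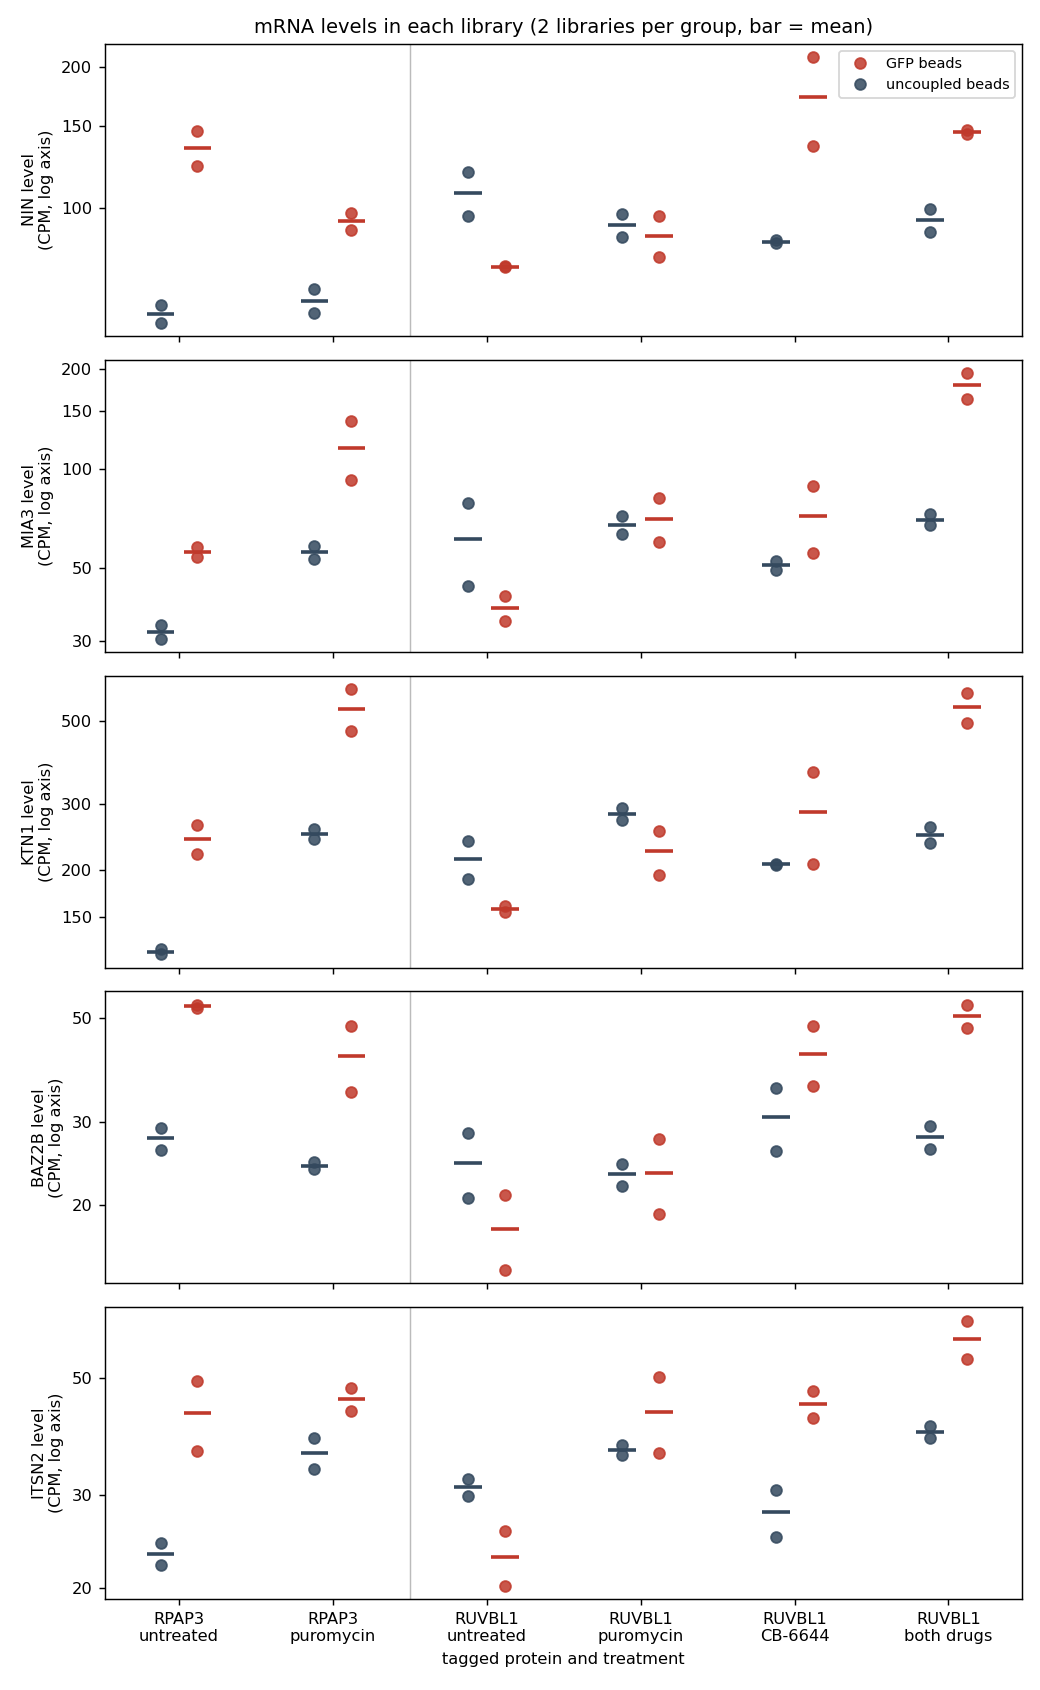
Level of each of the 5 mRNAs (CPM, logarithmic axis) in each of the 24 libraries, by tagged protein and treatment on the horizontal axis, with red points for GFP beads, dark points for uncoupled beads and a bar at the mean of 2 libraries. All 5 show red points above dark points in both RPAP3 conditions and after both drugs in the RUVBL1 line.

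Enrichment here means the level on GFP beads relative to the uncoupled beads of that treatment, as a log2 ratio of 2 libraries to 2 with its standard error (SE). In untreated cells, where the members were chosen, enrichment with RPAP3 was 1.21 ± 0.13 for NIN, 1.03 ± 0.15 for KTN1, 0.97 ± 0.15 for BAZ2B, 0.92 ± 0.15 for ITSN2 and 0.84 ± 0.16 for MIA3. With RUVBL1 it lay between −0.73 ± 0.26 for MIA3 and −0.46 ± 0.22 for ITSN2. The difference between the tagged proteins ran from 1.33 ± 0.29 for ITSN2 to 1.69 ± 0.28 for NIN, and placed the members at the 90.7th to 92.3rd percentile of the 16695 genes fitted. In the RPAP3 line all 5 had both GFP libraries above both uncoupled libraries, as did 14.5% of genes, and in the RUVBL1 line 4 of 5 had them below, as did 17.5% of genes. These values follow from the choice of members.

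After puromycin, 4 of the 5 mRNAs were still enriched with RPAP3. KTN1 was enriched 2.20-fold, MIA3 2.12-fold, BAZ2B 1.74-fold and NIN 1.50-fold over uncoupled beads. The rule that chose the members used no puromycin library, but the results of these libraries were known when the members were proposed. In edgeR's quasi-likelihood test with Benjamini-Hochberg adjustment over all genes, the log2 enrichment was 1.14 ± 0.15 for KTN1 (adjusted p = 0.000306), 1.08 ± 0.16 for MIA3 (adjusted p = 0.00137), 0.80 ± 0.15 for BAZ2B (adjusted p = 0.00991) and 0.59 ± 0.13 for NIN (adjusted p = 0.0383). ITSN2 did not pass, at 0.36 ± 0.15 with an adjusted p of 0.999 in edgeR. Across all genes 70 of 15202 were called, 0.460%, all of them higher on GFP beads. The GFP libraries of all 5 members lay above the uncoupled libraries, as did those of 15.1% of genes. The members' median was 0.80, against −0.0009 over all genes tested.

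The NIN call was kept in 6 of 12 alternatives, and the MIA3 and BAZ2B calls in 8 of 12 each. The number of calls depended on the libraries. It was 3 without GFP replicate A, 1 without GFP replicate B, 2 without uncoupled replicate A, 1 without uncoupled replicate B and 1 in a fit of all 24 libraries. The genes called higher under these settings numbered 108 of 16195, 22 of 16406, 19 of 16244, 12 of 16212 and 16 of 16695. KTN1 was called in each of its 12 alternatives (adjusted p in edgeR or DESeq2 from 5.33e-12 to 0.0471).

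Between the untreated and the puromycin state of the RPAP3 line, enrichment was lower for NIN by a log2 difference of −0.62 ± 0.18 and for ITSN2 by −0.55 ± 0.22. For BAZ2B the difference was −0.17 ± 0.21, for KTN1 0.11 ± 0.21 and for MIA3 0.24 ± 0.22. These differences share the untreated libraries used for the choice and are descriptions. For the ER pair the gap between the beads was thus similar at both conditions, while the level on both kinds of beads was higher after puromycin. On uncoupled beads alone the log2 difference between puromycin and untreated was 1.14 ± 0.15 for KTN1, 0.90 ± 0.16 for MIA3, 0.73 ± 0.15 for ITSN2, 0.19 ± 0.13 for NIN and −0.10 ± 0.15 for BAZ2B. The median over all genes was −0.06, and that over 21 other genes of ER exit and kinectin-like ER proteins was 0.61. It was 0.50 over 25 genes of clathrin endocytosis and 0.33 over 27 other genes for long coiled-coil proteins. Over 12 BAZ family genes and ISWI partners it was 0.18, and over 24 centrosomal coiled-coil genes −0.04. The summed epithelial markers of the RPAP3 line moved with this too, from 1590 to 1939 CPM untreated to 4134 to 5332 CPM after puromycin on both kinds of beads, and their part in the result was not tested. On beads alone, more of an mRNA in the cells, a larger share of cells that express it and more of it sticking to the beads cannot be told apart.

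**Figure D2:**
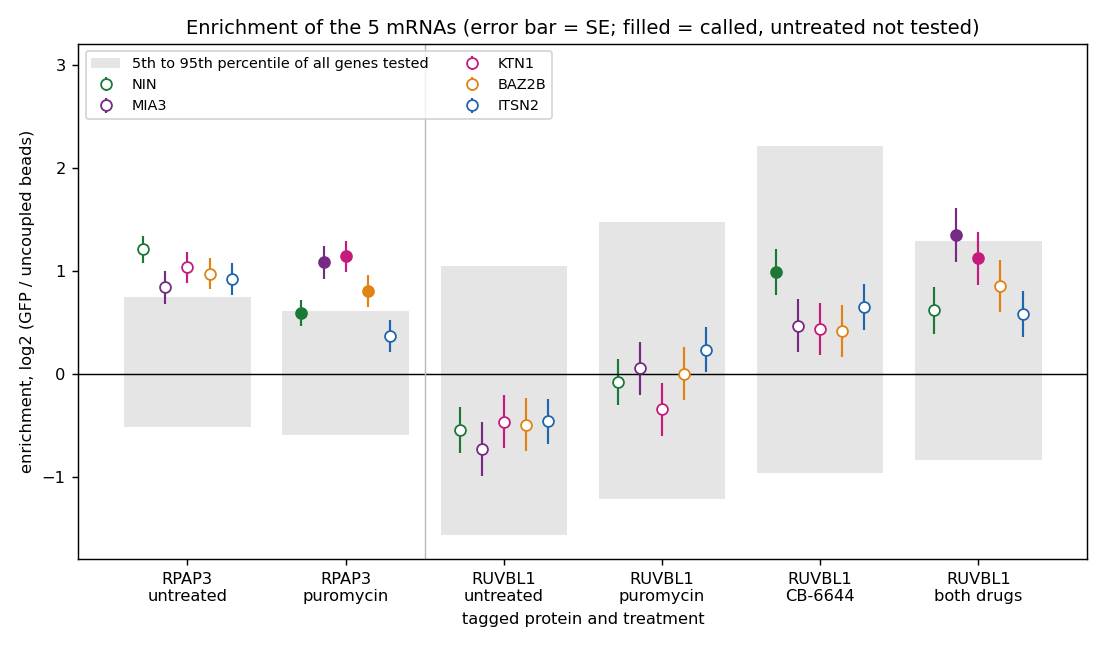
Enrichment of each mRNA (log2 of GFP over uncoupled beads, vertical axis) in each line and treatment, with SE bars, filled points for calls at an adjusted p under 0.05 and a grey band from the 5th to the 95th percentile of all genes tested. With RPAP3 after puromycin, KTN1 (1.14), MIA3 (1.08) and BAZ2B (0.80) lie above the band. With RUVBL1 after puromycin all 5 lie within the band, from −0.34 for KTN1 to 0.23 for ITSN2.

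With RUVBL1 after puromycin, none of the 5 mRNAs passed the test in either direction. In simulated counts a log2 difference of 1 was called in 31.2% of changed genes in this comparison. A change of that size can thus be missed. The log2 enrichment was −0.34 ± 0.26 for KTN1, −0.08 ± 0.22 for NIN, 0.00 ± 0.25 for BAZ2B, 0.05 ± 0.26 for MIA3 and 0.23 ± 0.22 for ITSN2. In edgeR 0 of 5 were called, against 2201 of 15976 genes, 13.8%, and 0 of 5 had an unadjusted p under 0.05, against 4490 genes. DESeq2 also called 0. KTN1 had both GFP libraries below both uncoupled libraries, as did 29.3% of genes, and the other members overlapped between the beads.

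The difference between the tagged proteins after puromycin was tested as an interaction over all 24 libraries. Each tagged protein had its own line, so protein, line and pull-down cannot be told apart in it. On untreated uncoupled beads the summed epithelial markers were 1595 to 1939 CPM in the RPAP3 line. In the RUVBL1 line they were 3581 to 4926 CPM. KTN1 was 2.72-fold more enriched with RPAP3 than with RUVBL1, a log2 difference of 1.44 ± 0.32 (edgeR adjusted p = 0.00861). The other differences did not pass in edgeR, at 0.99 ± 0.34 for MIA3 (adjusted p = 0.0886), 0.76 ± 0.32 for BAZ2B (adjusted p = 0.181), 0.64 ± 0.28 for NIN (adjusted p = 0.197) and 0.10 ± 0.28 for ITSN2 (adjusted p = 0.918). The call on 1 of 5 members stands beside 79 of 16695 genes called in that direction, 0.473%, and 664 called in the other. The members' median difference was 0.76, against −0.03 over all genes. The KTN1 call was lost without RPAP3 GFP replicate B (log2 difference 1.28, edgeR adjusted p = 0.0697), RUVBL1 GFP replicate 2 (1.26, 0.111) or RUVBL1 uncoupled replicate 1 (1.39, 0.0664). In contrast, 4 members were called without the 3 libraries that stood apart, where 1244 of 17216 genes were called in that direction. A fit of only the 8 libraries compared also called 4 members, with 1477 of 15120 genes. The count over all genes thus rose together with that of the members.

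After CB-6644, NIN was the member that passed the test with RUVBL1. It was enriched 1.99-fold, a log2 enrichment of 0.99 ± 0.23 (edgeR adjusted p = 0.0216). ITSN2 at 0.65 ± 0.22 (adjusted p = 0.102), MIA3 at 0.47 ± 0.26 (adjusted p = 0.293), KTN1 at 0.43 ± 0.26 (adjusted p = 0.321) and BAZ2B at 0.42 ± 0.25 (adjusted p = 0.339) did not pass in edgeR. The call on 1 of 5 members compares with 298 of 15976 genes called higher, 1.87%. The GFP libraries lay above the uncoupled ones for 4 of 5 members and for 24.3% of genes, and KTN1 overlapped. In each of the 5 members GFP replicate 1 was the higher library, and replicate 2, which stood apart with 9019665 counts, the lower.

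Without uncoupled replicate 1 or uncoupled replicate 2 of CB-6644 the NIN call was lost (edgeR adjusted p = 0.205 and 0.300), while 62 of 17202 and 52 of 17238 genes were called higher. Leaving out the 3 libraries that stood apart left 1 GFP library after CB-6644, replicate 1, the higher one for each member. The calls of that setting are therefore not compared. The values themselves moved with the GFP library left out. Without GFP replicate 1 NIN came to 0.61, MIA3 to 0.058, KTN1 to −0.06 and BAZ2B to 0.16, and without GFP replicate 2 they came to 1.28, 0.77, 0.79 and 0.62. BAZ2B also came to 0.66 without uncoupled replicate 1 and to 0.20 without uncoupled replicate 2. The summed markers of other cell types spanned 21.3 to 46.0 CPM on these GFP beads and 25.4 to 27.7 CPM on the uncoupled beads, and their part in the result was not tested.

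With both drugs, MIA3 and KTN1 had the highest enrichment with RUVBL1 among the 5 members, an order that was not tested. The 21 other genes of ER exit and kinectin-like ER proteins had a median of −0.02. MIA3 was enriched 2.54-fold, a log2 enrichment of 1.34 ± 0.26 (edgeR adjusted p = 0.0104), and KTN1 2.17-fold, at 1.12 ± 0.26 (edgeR adjusted p = 0.0468). BAZ2B at 0.85 ± 0.25 (adjusted p = 0.212), NIN at 0.61 ± 0.22 (adjusted p = 0.408) and ITSN2 at 0.58 ± 0.22 (adjusted p = 0.428) did not pass in edgeR, although all 5 had an unadjusted p under 0.05, as did 1364 of 15976 genes. All genes gave 89 calls of 15976, 0.557%, each of them higher on GFP beads. The GFP libraries of all 5 members lay above the uncoupled ones, as did those of 22.7% of genes, and the members' median was 0.85 against 0 over all genes. Without GFP replicate 1, which stood apart, 1 member (MIA3) was called, and without GFP replicate 2, uncoupled replicate 1 or uncoupled replicate 2 no member was. A fit of only the 4 libraries compared called 4 members, with 326 of 14246 genes called higher.

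The effect of adding one drug to the other was tested within the RUVBL1 line. Adding CB-6644 to puromycin gave log2 differences in enrichment of 1.46 ± 0.36 for KTN1 (edgeR adjusted p = 0.133), 1.29 ± 0.37 for MIA3 (0.207), 0.85 ± 0.36 for BAZ2B (0.488), 0.70 ± 0.32 for NIN (0.551) and 0.35 ± 0.31 for ITSN2 (0.841). None of these passed in edgeR, which called 17 of 15976 genes, 0.106%, while 4 of 5 members and 1359 genes had an unadjusted p under 0.05. DESeq2 called 1 member and 120 genes. Adding puromycin to CB-6644 gave 0.88 ± 0.37 for MIA3, 0.68 ± 0.36 for KTN1, 0.43 ± 0.36 for BAZ2B, −0.07 ± 0.31 for ITSN2 and −0.38 ± 0.32 for NIN. Here edgeR called 0 of 5 members and 8 of 15976 genes, 0.0501%, DESeq2 called 0 members, and 1 member, MIA3, had an unadjusted p under 0.05, as did 329 genes. The 2 comparisons share the libraries with both drugs.

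Against untreated RUVBL1 libraries, as a description, enrichment after CB-6644 was higher by a log2 difference of 0.90 ± 0.36 for KTN1 to 1.53 ± 0.32 for NIN. After puromycin it was higher by 0.12 ± 0.36 for KTN1 to 0.78 ± 0.37 for MIA3. The untreated baseline of both is that of the choice, and 1 of its uncoupled libraries stood apart.

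Over the 6 enrichments BAZ2B lay in the middle of the members, 0.558 (KTN1), 0.611 (ITSN2), 0.634 (MIA3) and 0.701 (NIN) from each of the others in Euclidean distance on the log2 scale. KTN1 and MIA3 were 0.565 apart and NIN and ITSN2 0.598 apart, while KTN1 and MIA3 lay 0.987 to 1.13 from NIN and ITSN2. With RPAP3 after puromycin and with RUVBL1 after both drugs, KTN1 and MIA3 were the highest members and NIN and ITSN2 the lowest, while with RUVBL1 after CB-6644 alone NIN and ITSN2 were the highest.

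Among 10901 genes with a mean of at least 5 CPM, those nearest to the median of the members over the 6 enrichments, each the ratio of 2 libraries to 2, were SLTM (distance 0.359), CLIP1 (0.361), ROCK2 (0.400), ARHGAP11B (0.409) and CNTRL (0.494). SLTM is a nuclear RNA-binding protein, CLIP1 a coiled-coil protein of growing microtubule ends, ROCK2 a kinase with a coiled-coil middle, and CNTRL (centriolin) a centrosomal coiled-coil protein. ARHGAP11B is a near copy of ARHGAP11A, so its counts are uncertain. The members themselves ranked 1 (BAZ2B), 15 (KTN1), 21 (ITSN2), 28 (MIA3) and 32 (NIN) by this distance. The measure includes the untreated values used for the choice.

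Lists of related genes were set beside the members, each list without them. With RPAP3 after puromycin edgeR called 70 of 15202 genes higher, 0.460%. Of 24 other centrosomal coiled-coil genes, 5 were enriched with RPAP3 after puromycin and none depleted in edgeR, with a list median of 0.38. They included PCM1, the scaffold of centriolar satellites, at 1.30 ± 0.17 (adjusted p = 0.000365), CNTRL at 0.90 ± 0.15 (adjusted p = 0.00352) and CDK5RAP2, which recruits γ-tubulin, at 0.89 ± 0.16 (adjusted p = 0.00752). CEP350 at 0.84 and CEP170 at 0.75 completed the 5 and were named after their values were seen. Of 27 other genes for long coiled-coil proteins, 12 were enriched and none depleted, with a median of 0.88. GOLGA4, a tether of the trans-Golgi, stood at 1.88 ± 0.18 (adjusted p = 8.51e-06), MYH10, the heavy chain of non-muscle myosin IIB, at 1.52 ± 0.15 (adjusted p = 8.51e-06) and RAD50, the coiled-coil ATPase of the MRN DNA repair complex, at 1.24 ± 0.13 (adjusted p = 2.26e-05). GOLGA4 had 300.6 and 441 CPM on GFP beads after puromycin against 99.9 and 105 on uncoupled beads, and 8380 and 10983 CPM on untreated GFP beads.

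The lists built on the members' other roles had lower medians with RPAP3 after puromycin than the 2 coiled-coil lists. All lists were drawn up with earlier results of these data known, so this order is a description. Of 12 BAZ family genes and ISWI partners 3 were enriched, namely BPTF, the large subunit of the NURF remodeller, at 1.17 ± 0.17 (edgeR adjusted p = 0.00222), BAZ1B at 0.98 ± 0.15 (edgeR adjusted p = 0.0017) and RSF1 at 0.98 ± 0.15 (edgeR adjusted p = 0.00191). The median of that list was 0.20. Of the 21 genes of ER exit and kinectin-like ER proteins 0 were called by edgeR or DESeq2 and 0 had an unadjusted p under 0.05, against 629 of 15202 genes, with a median of −0.03. The smallest p there belonged to KIF5B, the kinesin heavy chain, SEC16A, the scaffold of ER exit sites, and SEC24A, a cargo adaptor of the COPII coat, at 0.28, 0.28 and −0.22. Of 25 genes of clathrin endocytosis 0 were called by edgeR or DESeq2 and 2 had an unadjusted p under 0.05, with a median of 0.01. PICALM, a clathrin assembly protein, stood at −0.26, the adaptor STON2 at −0.60 and the lipid phosphatase SYNJ1 at −0.43.

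These counts also depended on single libraries. For the centrosome, other coiled-coil and BAZ lists they were 8, 15 and 3 without GFP replicate A, 2, 8 and 0 without GFP replicate B, 1, 7 and 1 without uncoupled replicate A, and 0, 4 and 0 without uncoupled replicate B. GOLGA4, MYH10 and RAD50 were called in each of 12 alternatives (highest adjusted p in edgeR or DESeq2 0.0411).

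With RUVBL1 after both drugs the 2 coiled-coil lists again had calls, where 89 of 15976 genes were called higher, 0.557%. Of the 27 other long coiled-coil genes 8 were enriched, with a median of 0.94, among them GOLGA4 at 1.76 ± 0.35 (edgeR adjusted p = 0.0109) and RAD50 at 1.51 ± 0.27 (edgeR adjusted p = 0.0044). Of the 24 centrosomal genes 2 were enriched, PCM1 at 1.27 ± 0.28 (edgeR adjusted p = 0.0362) and AKAP9, named after its values were seen, at 1.70 ± 0.25 (edgeR adjusted p = 0.00059), with a list median of 0.56. The BAZ list had a median of 0.50, with 0 calls in edgeR, 3 in DESeq2 and 7 unadjusted p under 0.05. The ER and clathrin lists had medians of −0.02 and 0.01, 0 calls each in edgeR and DESeq2, and 2 unadjusted p under 0.05 each. With any 1 of these libraries left out the count of the other coiled-coil list was lower. That of the centrosome list was lower or unchanged, and that over all genes was lower.

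With RUVBL1 after CB-6644 alone, edgeR called 298 of 15976 genes higher, 1.87%. There 3 of 24 centrosomal genes and 1 of 27 other coiled-coil genes were enriched, with medians of 0.51 and 0.38. The centrosomal genes were CEP164 at 1.53, PCNT at 1.14 and NINL, the paralog of NIN, at 0.97, all named after their values were seen, and the other was GOLGA4 at 3.90. The calls of the centrosome list were lost when either uncoupled library was left out. Counts of all the lists, and that over all genes, moved with the library left out, so such counts are not compared between lists. In the same comparison edgeR called 1 gene of the BAZ list, CHRAC1, lower at −1.01, with a list median of 0.21. Of the ER and clathrin lists edgeR called 0 genes each and DESeq2 1 each, with 2 and 3 unadjusted p under 0.05 and medians of −0.01 and −0.01.

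With RUVBL1 after puromycin alone, where 1590 of 15976 genes were called higher, 4 of 21 ER genes, 4 of 27 other coiled-coil genes, 2 of 12 BAZ list genes, 2 of 25 clathrin genes and 1 of 24 centrosomal genes were enriched in edgeR. The medians were 0.22, 0.02, 0.10, −0.07 and 0.12, so that of the ER list was the highest of the 5. The ER genes were SEC16A at 1.50, the COPII coat subunit SEC24C at 1.48, RRBP1 at 0.90 and CKAP4 at 0.65, and the coiled-coil genes were GOLGA3 at 1.01, MYH9 at 0.94, NUMA1 at 0.90 and CIT at 0.78. The BAZ list gave CECR2 at 1.47 and BAZ2A at 0.99, with CHRAC1 lower at −1.03, the clathrin list gave AP2A1 at 1.24 and AP2B1 at 1.09, subunits of the AP-2 adaptor, and the centrosome list gave PCNT at 1.01. Apart from SEC16A these genes were named after their values were seen. Without GFP replicate 1, GFP replicate 2, uncoupled replicate 1 or uncoupled replicate 2 the genes enriched in the ER list were 4, 1, 1 and 2, those in the other coiled-coil list 1, 0, 0 and 0, those in the BAZ list 2, 1, 1 and 1, those in the clathrin list 2, 0, 0 and 2, and none of the centrosome list was called. The BAZ list had 1 gene called lower without uncoupled replicate 2 and 0 in the other 3 settings. Over all genes 1240, 336, 300 and 794 were called higher in the same order.

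**Figure D3:**
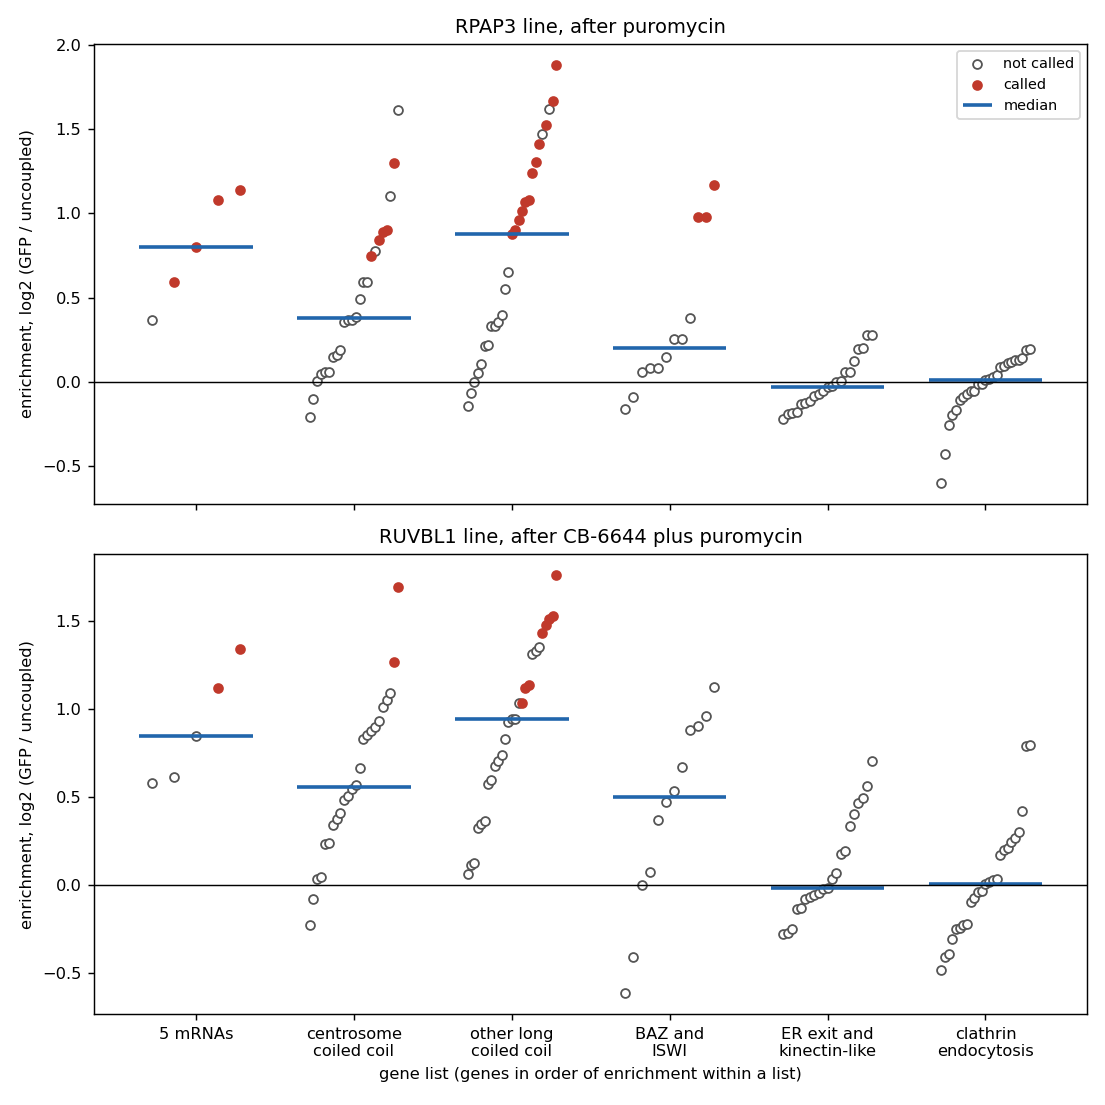
Enrichment (log2 of GFP over uncoupled beads, vertical axis) of each gene of the 5 members and of 5 gene lists, in order of enrichment within a list, with RPAP3 after puromycin in the upper panel and RUVBL1 after both drugs in the lower. Red points are calls in edgeR and blue lines are medians, which stand at 0.80, 0.38, 0.88, 0.20, −0.03 and 0.01 in the upper panel.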

How the data were processed

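The authors deposited whole-number read counts per gene for 24 libraries, not normalized. The submitters' processing notes name hg38, TopHat2 2.1.1, featureCounts 2.0.3, bcl2fastq 2.20.0.422, MultiQC 1.12 and FastQC 0.11.9. Per the labels' protocols the kit was stranded. The annotation release, strand setting and handling of multi-mapping reads are not given in the sources used here, so reads of near-identical, overlapping or antisense genes may have been split or merged. Of 27790 gene IDs, 27757 matched the NCBI gene table for GRCh38.p14. Protein sequences were not used here, so coiled-coil content is background knowledge.

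Each comparison was tested with the robust quasi-likelihood test of edgeR 4.0.16 (R 4.3.3) on the counts, after filterByExpr and TMM scaling, and a gene was called at a Benjamini-Hochberg adjusted p under 0.05. The 8 RPAP3 libraries (15202 genes, common biological coefficient of variation 0.142), the 16 RUVBL1 libraries (15976 genes, 0.263) and all 24 libraries (16695 genes, 0.229) were fitted separately, with 1 coefficient per group. SEs come from the F statistic and its pooled, moderated variance. They are not the spread of the libraries compared. Levels are on the scale of the fit of 24 libraries. The labels do not say whether replicates were separate cultures, and the spread behind the p-values may thus be technical. The tests were also tried on simulated counts with the spread of the main fits. There each gene had 1 mean for all groups, apart from changes planted in 1 group. The real groups also differed in many other genes, so the shares may not carry over. Log2 differences of 1 were called in 67% of changed genes for RPAP3 after puromycin. The share was 31.2% for RUVBL1 after puromycin and 10.8% for the difference between the tagged proteins. False calls made up 11.6%, 6.73% and 9.09% of calls in the same order, each above the share of 0.05 that the threshold sets.

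The members and the gene lists were chosen with earlier results of these data known. Genes named are the members, the 3 of each list with the smallest p with RPAP3 after puromycin, and the 5 nearest to the members' median, with exceptions marked. Alternatives were DESeq2 1.42.0, other scalings, no filter, other sets of libraries, a replicate block and each library left out. Leaving out 3 libraries together was chosen after seeing the data. A group left with 1 library was assumed to vary like the others.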

Additional observations from a re-analysis of the deposited data

Results flagged for a closer look

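KTN1 met a criterion for a difference between groups under the same contrast: after puromycin its enrichment with RPAP3 exceeded that with RUVBL1 by 1.44 ± 0.32 on the log2 scale (edgeR interaction test over all 24 libraries, adjusted p = 0.00861). It was the only member of the 5 to pass that test in these settings. Tagged protein and line cannot be told apart in that test. The call was kept in 13 of 16 alternatives, with log2 differences from 1.26 to 1.65. In untreated cells the same difference was 1.44 ± 0.32, a value that follows from the choice of members and does not bear on the call.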

How the results depend on the processing

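Over 505 alternative values of the 35 member comparisons, 432 kept direction and side of the threshold, 26 passed it newly, 27 lost it and 20 turned sign. Counts of members called with RPAP3 after puromycin were 4 at first, 1 in the fit of all 24 libraries and 1 to 3 with a library left out. For RPAP3 minus RUVBL1 after puromycin the count was 1, then 2 with DESeq2, no filter or upper-quartile scaling, 4 without the 3 libraries that stood apart or with only the libraries compared, and 0 to 1 with a library left out. For RUVBL1 after CB-6644 it was 1, then 2 with DESeq2, total-count scaling or all 24 libraries, and 0 with only the libraries compared. The NIN call was lost with either uncoupled library left out. Without those 3, GFP beads after CB-6644 had 1 library, the higher one for each member, and the count of members called is not compared. For RUVBL1 after both drugs it was 2, then 4 with only the libraries compared and 0 to 1 with a library left out. For the change with CB-6644 under puromycin it was 0, then 1 with DESeq2 or all 24 libraries, and 2 with no filter or with only the libraries compared. Without those 3, GFP beads after both drugs had 1 library, and that count is not compared.

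Values that turned sign included KTN1 after CB-6644, 0.43 at first, and ITSN2 with RUVBL1 after puromycin, 0.23 at first. With RUVBL1 after puromycin BAZ2B came to −0.0115 with DESeq2, −0.0115 with RLE factors, −0.0029 without the 3 libraries, −0.0125 with no filter, −0.0199 with the replicate block and −0.0838 with upper-quartile scaling, where MIA3 came to −0.0328. With a library left out, values in that comparison ran from −0.28 to 0.23 for BAZ2B, −0.18 to 0.24 for MIA3, −0.23 to 0.039 for NIN and −0.017 to 0.44 for ITSN2. ITSN2 ran from −0.13 to 0.35 for RPAP3 minus RUVBL1 after puromycin and from −0.22 to 0.080 for the change with puromycin under CB-6644. KTN1 ran from −0.060 to 0.79 after CB-6644. The cause of these shifts was not tested.

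Replicate numbers are shared within a line, but the labels tie nothing to them, and deviations of same-numbered libraries correlated at −0.006 to 0.215 (RPAP3) and −0.475 to 0.337 (RUVBL1). With a replicate block the members called were 4 with RPAP3 after puromycin, beside 102 of 15202 genes called higher. In the RUVBL1 line 0 were called after puromycin, beside 2559 of 15976 genes in either direction. There 1 was called after CB-6644 and 3 after both drugs, beside 381 and 129 of 15976 genes called higher. The block gave 1 for the difference between the tagged proteins, beside 110 of 16695 genes called higher. It gave 0 for each drug change, beside 11 of 15976 genes with puromycin and 27 with CB-6644.

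Counts over all genes moved more. They were 12 to 136 around 70 with RPAP3 after puromycin, and in the RUVBL1 line 306 to 4914 around 2201 after puromycin, 12 to 3557 around 387 after CB-6644 and 18 to 333 around 89 after both drugs. For RPAP3 minus RUVBL1 they were 81 to 3435 around 743, for the change with puromycin 4 to 161 around 8 and for that with CB-6644 7 to 699 around 17. Calls higher and lower were 298 and 89 after CB-6644, 770 and 47 with total-count scaling and 308 and 176 with upper-quartile scaling. After puromycin with RUVBL1 they were 1590 and 611, then 1361 and 1181 with upper-quartile scaling, and for RPAP3 minus RUVBL1 79 and 664, then 221 and 490. Total-count scaling moved the median of all genes to 0.26 after CB-6644 and to −0.20 for the change with puromycin under CB-6644. For RPAP3 minus RUVBL1, 409 of 16695 genes were called higher with DESeq2 and 218 of 24840 with no filter. After CB-6644, 944 of 15976 were with DESeq2 and 983 of 16695 in the fit of 24 libraries. For the change with CB-6644 under puromycin, 120 of 15976 genes were called with DESeq2 and 145 of 23233 with no filter. The fit of 24 libraries called 86 of 16695, and that of only the libraries compared 382 of 14734.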
